A study of Mus musculus with 6 samples.

Results

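Neurotransmitter receptor genes were followed in mature medullary thymic epithelial cells with and without Aire. The genes were the rows of the deposited UMI count table whose symbols begin with the names of GABA-A, ionotropic glutamate, metabotropic glutamate, serotonin, acetylcholine, dopamine, adrenergic or glycine receptor subunits, and no measured value entered that choice. The rule matched 43 of 15643 rows. Of these, 42 encode receptor proteins, 25 of them subunits of ligand-gated channels and 17 G protein-coupled receptors. The remaining row, Chrna1os, is annotated as an antisense RNA named after the muscle acetylcholine receptor gene Chrna1 and is no receptor. The GENCODE annotation of the mm10 genome holds 102 symbols that fit the rule. The others, among them Chrna1, Chrnd and the muscarinic receptors, were not analysed here. No gene in the table stayed below 6 UMIs in its highest library, so receptors counted less often than that could not appear.

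The cells were the MHC class II-high fraction of the thymic medulla (mTEChi), sorted from NOD mice aged 4.5 weeks. NOD is an inbred strain prone to autoimmune diabetes. The 3 libraries labelled Aire-/- carried the numbers 746, 748 and 749, and the 3 libraries labelled Aire+/+ carried 745, 750 and 753. The labels name neither the Aire exons removed nor the animals behind the numbers, so the p-values reflect how far these libraries vary, which may be technical only.

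Ligand-gated receptors are assembled from several subunits around an ion pore and open when a transmitter binds, whereas G protein-coupled receptors act through intracellular messengers. Their textbook sites are brain, autonomic ganglia, muscle and glands. Medullary thymic epithelial cells display proteins of such peripheral tissues to developing T cells, and Aire is the transcriptional regulator known for enabling much of that display. The acetylcholine receptor of muscle is the autoantigen of myasthenia gravis, and the NMDA receptor is an autoantigen of autoimmune encephalitis.

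MARS-seq tags transcripts close to the 3′ end and counts molecules by a random barcode, the UMI. Library totals ran from 1014581 to 1960802 UMIs in the libraries labelled Aire-/- and from 2736932 to 2887321 UMIs in those labelled Aire+/+. A count of 0 allows up to 3 UMIs, or 1.53 to 2.96 CPM of the total in the first and 1.04 to 1.10 CPM in the second; these floors and all counting intervals below cover counting error only. Aire itself had 4772, 8298 and 8372 UMIs in the libraries labelled Aire-/- and 6290, 6783 and 7290 in those labelled Aire+/+. That is 4839 ± 334 CPM in Aire-/- and 2245 ± 193 CPM in Aire+/+ (SD, n = 3 each). The transcript was called higher, not lower, under the knockout label (log2 of Aire-/- over Aire+/+ 1.10, edgeR adjusted p = 7.78e-05). Whether the 3′ tag lies in the deleted part is not known, so these counts cannot check the label. The cause was not tested, and the directions below rest on the labels. Gapdh, a glycolytic enzyme of every cell, had 28 UMIs in library 746 and 90 in library 753, against 2245 to 4166 in the other 4 libraries, so counts are also given without those 2 libraries. The defining genes of the sorted cells were all in the table: 14 of 14 mTEChi markers, with a summed level of 67306 to 76155 CPM in the libraries labelled Aire-/- and 38812 to 45990 CPM in those labelled Aire+/+. Of these markers 6 rose, against 8.59% of all 11956 genes tested. Among them were the MHC class II genes H2-Aa and H2-Ab1.

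Several receptor subunits known from brain were lower in the libraries labelled Aire-/-, and one NMDA receptor subunit, Grin2c, was 2.85 times higher in pooled UMIs scaled by library size. Chrna4 and Chrna2 of the neuronal nicotinic receptor, Grm4 of the metabotropic glutamate receptors and Grin1 of the NMDA receptor fell most. Chrng of fetal muscle and the adrenergic receptor Adra1b fell less. Chrna5, an accessory nicotinic subunit, rose beside Grin2c. The filter on low counts left 20 of the 43 rows with a test, and all 20 were receptors. Of these, 6 were called lower (30.0%, against 12.1% of all 11956 genes tested), 3 higher (15.0%, against 8.59%) and 11 were not called, at an edgeR quasi-likelihood Benjamini-Hochberg adjusted p of 0.05. Chrna4, Chrna2, Grin1, Grm4 and Chrng passed the filter through the deeper Aire+/+ libraries alone, so they could hardly be called higher. The shares therefore describe the tested rows and are no test of the receptor families. The median log2 fold change of the tested receptors was -0.08, against -0.02 over all tested genes, and it was also -0.08 with Chrna4, at 0 UMIs in Aire-/-, set to its bound. In these bulk samples fewer cells of a type and less RNA per cell cannot be told apart.

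The counts depended on single libraries. Without library 753, 2 of 18 tested were lower and 1 higher, against 9.3% and 5.23% of all genes tested. Without 750, 3 of 20 were lower, against 10.8%. Without 748 or 745, 1 of 24 or 19 was higher, against 6.25% or 5.39%. Part of the drop in lower calls is the filter, which Chrna4 missed without 750 or 753 and Chrna2 without 753. With both Gapdh-poor libraries left out, 21 were tested. Then 4 were lower (Chrna2, Chrna4, Grin1 and Grm4), against 9.69%, and 2 higher (Grin2c and Chrna5), against 5.35%. Grin2c, Grm4 and Grin1 were called under all 12 alternatives run, and Chrna2 and Chrna4 under the 10 in which they passed the filter.

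**Figure D1:**
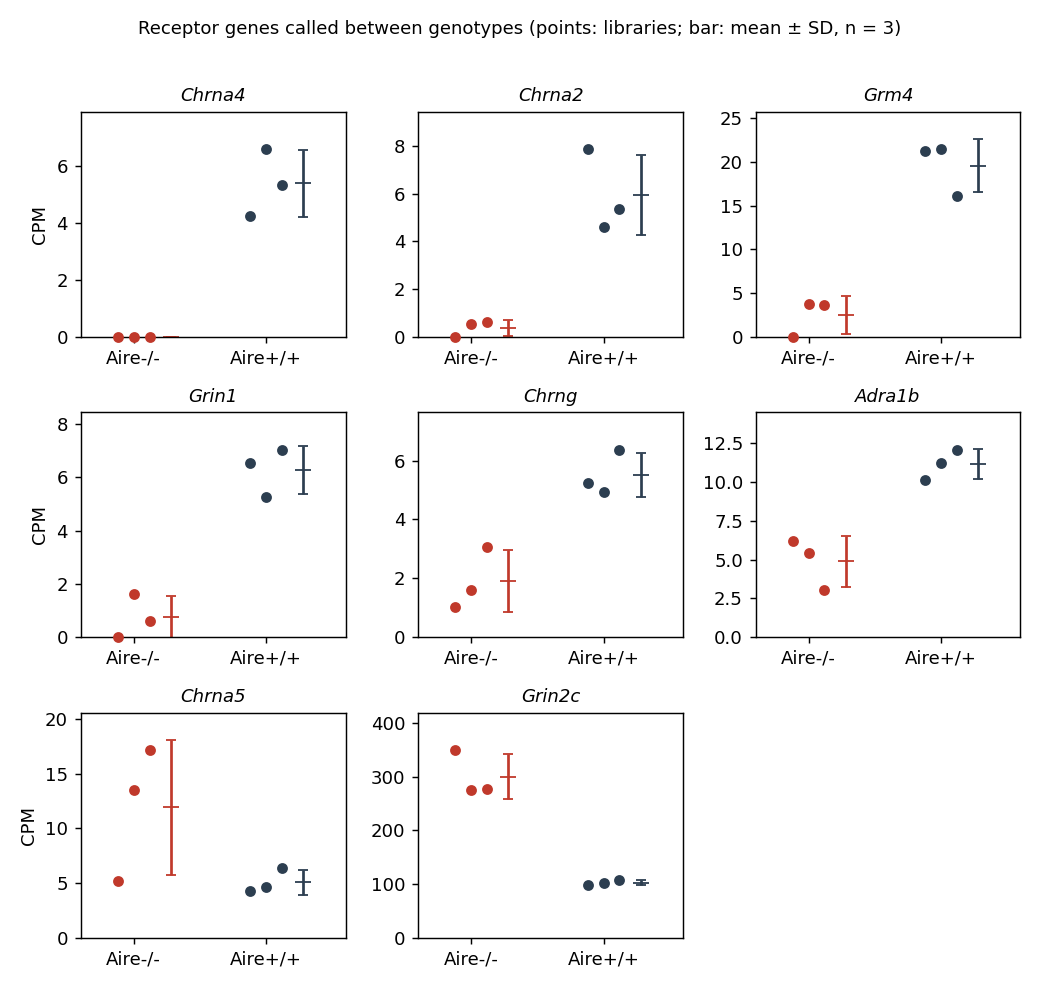
Level in CPM (y axis, linear from 0, a scale of its own in each panel) of 8 of the 9 called receptor genes in each library; points are libraries, bars are mean ± SD of 3, Aire-/- left and Aire+/+ right. The libraries of the genotypes overlap for Chrna5 and for no other gene drawn.

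The promoters of some of the called genes are shown because they let the falling and rising members be compared base by base. RefSeq (GRCm38.p6) gave 35 promoter windows for 31 of the 43 rows, each reaching from 250 bases before to 50 after an annotated start. The transcript starts used in these cells were not measured. Below are Chrna4 (chr2:181039128-181039427, minus strand) and Grin1 (chr2:25319138-25319437, minus strand), which fell, and Grin2c (chr11:115267194-115267493, minus strand) and the second listed start of Chrna5 (chr9:54981238-54981537, plus strand), which rose. All read 5′ to 3′, and capitals mark the GC box, GGGCGG, on either strand.
Chrna4: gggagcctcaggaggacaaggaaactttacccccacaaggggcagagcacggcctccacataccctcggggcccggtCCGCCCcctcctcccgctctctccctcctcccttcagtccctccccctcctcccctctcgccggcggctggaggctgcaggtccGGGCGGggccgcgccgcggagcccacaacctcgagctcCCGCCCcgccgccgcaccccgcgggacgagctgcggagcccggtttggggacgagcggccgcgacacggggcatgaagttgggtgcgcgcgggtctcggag
Grin1: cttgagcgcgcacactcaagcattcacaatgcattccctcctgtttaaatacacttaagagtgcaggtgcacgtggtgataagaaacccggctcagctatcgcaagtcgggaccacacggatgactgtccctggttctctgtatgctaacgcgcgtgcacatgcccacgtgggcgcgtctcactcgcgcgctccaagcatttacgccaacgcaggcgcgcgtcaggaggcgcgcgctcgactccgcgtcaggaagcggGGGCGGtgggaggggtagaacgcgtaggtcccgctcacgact
Grin2c: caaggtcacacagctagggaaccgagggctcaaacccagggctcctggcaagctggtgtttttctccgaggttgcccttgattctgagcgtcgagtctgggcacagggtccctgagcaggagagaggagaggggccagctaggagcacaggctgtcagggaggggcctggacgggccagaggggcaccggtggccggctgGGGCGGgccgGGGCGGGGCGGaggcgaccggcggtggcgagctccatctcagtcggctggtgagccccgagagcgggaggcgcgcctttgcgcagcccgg
Chrna5: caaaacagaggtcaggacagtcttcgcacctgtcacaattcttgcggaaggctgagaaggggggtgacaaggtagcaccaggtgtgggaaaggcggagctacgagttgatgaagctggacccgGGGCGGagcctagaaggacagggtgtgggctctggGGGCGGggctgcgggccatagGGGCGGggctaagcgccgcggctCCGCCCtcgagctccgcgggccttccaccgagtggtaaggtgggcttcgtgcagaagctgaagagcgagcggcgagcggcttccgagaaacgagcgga
These windows held 33, 33, 22 and 25 CpG dinucleotides in the order shown, against a median of 17 for promoters of genes in the table. Over all 35 windows of the rule the median was 12, below that of the table, and over all promoters it was 7. The windows shown were above each of these medians and held a GC box, for members that fell and members that rose. They do not stand for the receptor windows as a set. Adra1b, which fell, had 3 CpG dinucleotides and no GC box at 1 listed start and 28 with a GC box at another. Chrna2 and Grm4, which fell, had no window. Chrng, which also fell, had 2 CpG dinucleotides and no GC box in its window. The first listed start of Chrna5 had 5 CpG dinucleotides and no GC box.

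Over all 35 windows the GC box was found in 21 (60.0%), against 35.7% of all 32851 promoters in RefSeq and 56.1% of the 15495 promoters of genes in the table. The TATA box, TATAAA on either strand, was in 1 window (2.86%), that of Chrnb1, against 13.6% of all promoters and 9.12% of those in the table. The binding element of REST, a repressor of neuronal genes, was searched on both strands by its left part, TTCAGCACC, and by its right part. The left part was in 1 window (2.86%), that of Grm2, against 0.371% of all promoters and 0.400% of those in the table. The right part was in 1 (2.86%), that of Gabrr2, against 0.521% and 0.684%. Each share rests on 1 window, and a difference was not tested. A match here is a description of the letters, not of a bound site.

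NMDA receptors moved in both directions. Every NMDA receptor needs the Grin1 subunit, which binds glycine, and takes its glutamate-binding partner from the Grin2 group; Grin2c is best known from the cerebellum. Grin1 had 0, 3 and 1 UMIs in the libraries labelled Aire-/- (746, 748 and 749) and 20, 16 and 21 UMIs in the libraries labelled Aire+/+ (745, 750 and 753). The genotypes did not overlap. Its level was 0.74 ± 0.82 CPM in Aire-/- and 6.28 ± 0.91 CPM in Aire+/+ (SD, n = 3 each), and log2(Aire-/- over Aire+/+) was -2.75 (SE 0.58; edgeR adjusted p = 0.0041, and 0.00207 to 0.0327 over the alternatives). The antisense gene Grin1os lies over the last exonic bases of Grin1, and since the strand setting of the counting is not given, reads of the pair cannot be told apart.

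Grin2c had 339, 509 and 451 UMIs in the libraries labelled Aire-/- and 299, 311 and 319 UMIs in those labelled Aire+/+. Every Aire-/- library was above every Aire+/+ library, although the Aire-/- libraries hold fewer UMIs. As CPM it stood at 300 ± 42.4 in Aire-/- and 102 ± 4.56 in Aire+/+ (SD, n = 3 each), and log2(Aire-/- over Aire+/+) was 1.54 (SE 0.14; edgeR adjusted p = 7.48e-06). The smallest log2 fold change with 1 library left out was 1.43. No other annotated gene has an exon over its last 500 exonic bases, and no other transcript matched its last 300 bases. Its neighbours in the table, Tmem104 (log2 fold change 0.94, edgeR adjusted p = 0.106) and Fdxr (0.39, 0.285), were not called.

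The other ionotropic glutamate receptor subunits with a test were not called. Grik5, a kainate receptor subunit that needs a partner subunit to form a channel, had 25, 76 and 57 UMIs in the libraries labelled Aire-/- and 73, 68 and 76 in those labelled Aire+/+, or 33.9 ± 7.68 and 23.9 ± 1.51 CPM (log2 difference 0.53, SE 0.20, edgeR adjusted p = 0.0854). The libraries did not overlap, and without library 746 Grik5 was called (0.67, edgeR adjusted p = 0.0239). Gria3, an AMPA receptor subunit, was at 17.5 ± 5.99 CPM in Aire-/- and 13.2 ± 2.05 CPM in Aire+/+, and Grid1, a delta receptor subunit, at 8.28 ± 3.22 and 10.02 ± 2.18 CPM. Both overlapped between genotypes, with log2 fold changes of 0.44 and -0.34 (edgeR adjusted p of 0.317 and 0.564). Grik3, a kainate receptor subunit, had 0 UMIs in each library labelled Aire-/- and 6, 5 and 9 in those labelled Aire+/+. Taking 3 UMIs in the Aire-/- group as the floor, it was 3.27-fold lower, with an exact counting limit of 2.42.

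Both metabotropic glutamate receptors in the table were lower. Grm4, a presynaptic receptor that dampens transmitter release, had 0, 7 and 6 UMIs in the libraries labelled Aire-/- and 65, 65 and 48 in those labelled Aire+/+. That is 2.48 ± 2.15 CPM in Aire-/- and 19.6 ± 3.04 CPM in Aire+/+ (SD, n = 3 each), with no overlap, and log2(Aire-/- over Aire+/+) was -2.76 (SE 0.44; edgeR adjusted p = 0.000593). The genes on both sides of Grm4 in the table went the other way: Lemd2 rose by 0.63 and AI413582 by 0.49 on the log2 scale (edgeR adjusted p of 0.00513 and 0.0104). Grm2, also an inhibitory presynaptic receptor, had 1, 0 and 0 UMIs in Aire-/- and 16, 7 and 6 in Aire+/+. Its Aire+/+ over Aire-/- ratio was 14.2 with an exact Clopper-Pearson 95% counting interval of 2.36 to 582, and it was below the filter. The antisense gene Gm28111 covers its last 300 bases, so reads of the pair cannot be told apart without strand.

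Among neuronal nicotinic acetylcholine receptors 2 ligand-binding alpha subunits fell and the accessory subunit rose. Chrna4, which pairs with Chrnb2 in the most common nicotinic receptor of the brain, had 0 UMIs in all libraries labelled Aire-/- and 13, 20 and 16 UMIs in those labelled Aire+/+ (5.40 ± 1.17 CPM). It was 8.02-fold lower with 3 UMIs over the Aire-/- group as the floor, with an exact counting limit of 6.28 (edgeR adjusted p = 0.00102). Without library 750 or without 753 it was below the filter and carried no test. Chrna2, another ligand-binding brain subunit, had 0, 1 and 1 UMIs in Aire-/- and 24, 14 and 16 in Aire+/+, a ratio of Aire+/+ over Aire-/- of 13.3 with a counting interval of 3.50 to 112 (edgeR adjusted p = 0.00163). It was below the filter without 745 or without 753.

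Chrnb2, the partner of Chrna4, did not fall with it. It had 8, 9 and 13 UMIs in the libraries labelled Aire-/- and 11, 11 and 4 in those labelled Aire+/+, or 7.02 ± 1.88 and 2.85 ± 1.31 CPM. The libraries did not overlap, with Aire-/- above Aire+/+, but the log2 difference of 1.23 (SE 0.45) missed the threshold (edgeR adjusted p = 0.0725). The last 300 bases of Chrnb2 lie over exons of Adar on the opposite strand, so its counts are uncertain. Chrna5, which joins other subunits without forming a channel of its own, had 5, 25 and 28 UMIs in Aire-/- and 13, 14 and 19 in Aire+/+, or 11.9 ± 6.16 and 5.08 ± 1.13 CPM. Library 746 lay within the Aire+/+ range, and the other 2 Aire-/- libraries were above it. On the log2 scale this was 1.30 (SE 0.39; edgeR adjusted p = 0.0319). The call was lost without library 748 (adjusted p = 0.0959), 749 (0.119), 745 (0.119), 750 (0.0977) or 753 (0.056), with library totals as the scale (0.0564) and with DESeq2 (0.052). Chrnb4, a subunit of ganglia and the next gene in the table after Chrna5 on chromosome 9, was at 4.95 ± 1.2 CPM in Aire-/- and 4.42 ± 1.22 CPM in Aire+/+ with no call (log2 fold change 0.10, edgeR adjusted p = 0.901).

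The nicotinic subunits of the inner ear, Chrna9 and Chrna10, which form the receptor of cochlear hair cells, showed overlapping libraries. Chrna10 was at 5.73 ± 2.17 CPM in Aire-/- and 6.39 ± 0.85 CPM in Aire+/+ (log2 fold change -0.23, edgeR adjusted p = 0.732), and its last 300 bases coincide with Art1 on the opposite strand. Chrna9 had 2, 12 and 5 UMIs in Aire-/- and 16, 5 and 4 in Aire+/+ and carried no test.

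Of the muscle acetylcholine receptor, 3 subunits were in the table. Chrng, the gamma subunit of the fetal receptor, had 1, 3 and 5 UMIs in the libraries labelled Aire-/- and 16, 15 and 19 UMIs in those labelled Aire+/+, or 1.90 ± 1.05 and 5.51 ± 0.75 CPM, without overlap. On the log2 scale it differed by -1.44 (SE 0.46; edgeR adjusted p = 0.0436). The call was lost without library 746 (adjusted p = 0.122), 748 (0.181), 745 (0.103), 750 (0.0703) or 753 (0.144), without both Gapdh-poor libraries (0.226), with a looser filter (0.0557), with none (0.0599) and with DESeq2 (0.179). Chrne, the epsilon subunit that replaces gamma in the adult receptor, had 17, 36 and 43 UMIs in Aire-/- and 49, 74 and 58 in Aire+/+, or 21.1 ± 4.66 and 19.9 ± 4.22 CPM (log2 fold change 0.09, edgeR adjusted p = 0.837). Chrnb1, the beta subunit of both forms, was at 10.8 ± 1.87 CPM in Aire-/- and 9.47 ± 1.07 CPM in Aire+/+ (0.20, 0.692). The libraries of Chrne and Chrnb1 overlapped. Chrna1os had 0, 2 and 1 UMIs in Aire-/- and 7, 11 and 4 in Aire+/+, a ratio of Aire+/+ over Aire-/- of 3.60 with a counting interval of 1.08 to 18.8.

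Skeletal muscle markers changed in both directions. All 11 listed markers were in the table, 8 were tested, 4 fell and 1 rose. Over all tested genes 12.1% fell and 8.59% rose. The summed level was 792 to 824 CPM in the libraries labelled Aire-/- and 452 to 476 CPM in those labelled Aire+/+. Most of it was desmin (Des, 709 ± 45.5 and 262 ± 22.6 CPM). Actc1, cardiac actin, and Myod1, a regulator of muscle identity, had 0 UMIs in every Aire-/- library, against 191 and 17 over the Aire+/+ group. Of 11 listed neuronal markers 10 were in the table and 7 were tested; 3 fell (Gap43, Nefl and Rbfox3). Their summed level was 131 to 236 CPM in Aire-/- and 194 to 205 CPM in Aire+/+, and none was at 0 in all Aire-/- libraries. The part of these cells in the receptor results was not tested.

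**Figure D2:**
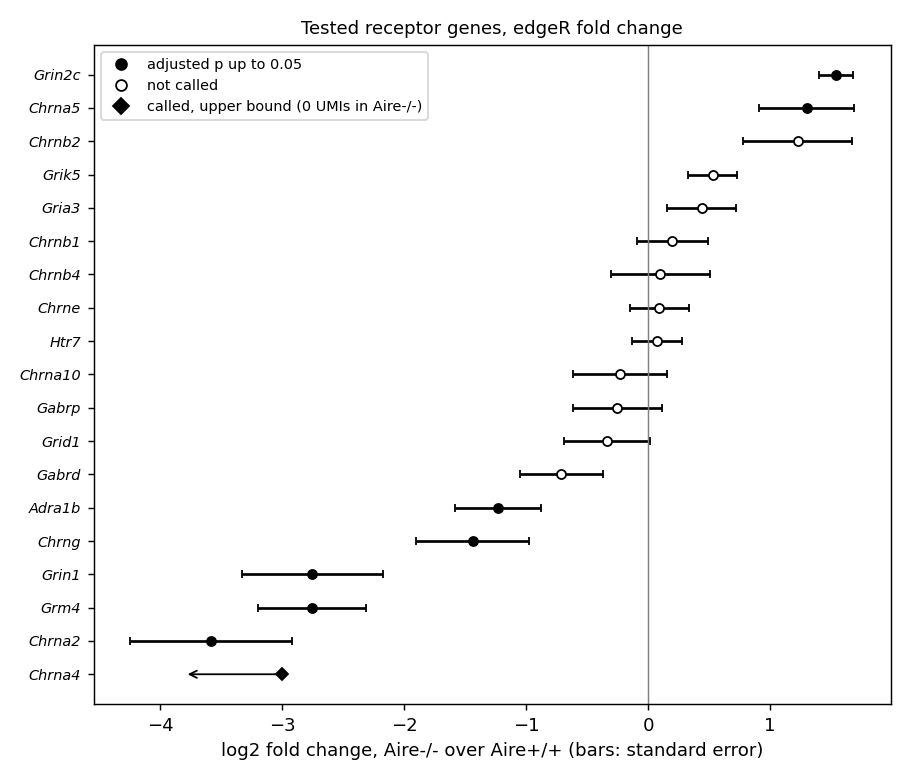
Log2 fold change of Aire-/- over Aire+/+ (x axis) for 19 of the 20 receptor genes with a test, ordered by value, with the standard error as bars; filled symbols are called at an adjusted p of 0.05. Chrna4, with 0 UMIs in Aire-/-, is drawn as a diamond at its bound of -3.00 with an arrow, and the values run up to 1.54 for Grin2c.

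Among the receptors that bind adrenaline and noradrenaline, Adra1b fell. Adra1b, a receptor of vascular muscle and liver, had 6, 10 and 5 UMIs in Aire-/- and 31, 34 and 36 in Aire+/+, or 4.88 ± 1.62 and 11.1 ± 0.97 CPM, without overlap (log2 difference -1.23, SE 0.35, edgeR adjusted p = 0.0237). Its call was lost without 748 (0.0512), 749 (0.0793), 750 (0.0577) or 753 (0.0826), without both Gapdh-poor libraries (0.0772) and with DESeq2 (0.0746).

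Adra2b, Adra2c, Adrb1 and Adrb3 were below the filter. Adra2b and Adra2c, which inhibit transmitter release, had 0 UMIs in every library labelled Aire-/-, against 3, 1 and 7 for Adra2b and 4, 2 and 8 for Adra2c in Aire+/+. With 3 UMIs as the floor Adra2c was 2.29-fold lower, with an exact counting limit of 1.63, but 1.46-fold lower at that floor without library 753. For Adra2b the bound of 1.80-fold became 0.976 without library 753, so no minimum difference holds there. Adrb3, the receptor of fat cells, had 1 UMI in each Aire-/- library and 17, 10 and 5 UMIs in Aire+/+ (ratio of Aire+/+ over Aire-/- 5.24, counting interval 1.64 to 26.7). The antisense gene Gm45470 overlaps its 3′ end. Adrb1, the receptor of heart muscle, had 3, 10 and 4 UMIs in Aire-/- and 5, 5 and 13 in Aire+/+, with overlap. Its last 300 bases share a repeat of 90% identity or more with many transcripts, so reads may have been divided.

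Among serotonin receptors only Htr7, which raises cyclic AMP, had enough UMIs for a test. It stood at 53, 127 and 155 UMIs in the libraries labelled Aire-/- and 221, 169 and 242 in those labelled Aire+/+, or 72.7 ± 20.6 and 69.7 ± 12.8 CPM, with no call (log2 difference 0.07, SE 0.20, edgeR adjusted p = 0.846). Its sign turned to -0.14 with library totals as the scale, to -0.16 without library 749 and to -0.07 without 750. Htr3a, the serotonin-gated channel, had 1, 0 and 1 UMIs in Aire-/- and 18, 11 and 7 in Aire+/+, a ratio of Aire+/+ over Aire-/- of 8.84 with a counting interval of 2.28 to 75.8. Htr5b (0 in every Aire-/- library, against 3, 12 and 12) was 4.42-fold lower at the floor of 3 UMIs, with an exact counting limit of 3.35. Htr1a (0, against 8, 1 and 5) was 2.29-fold lower at that floor, or 1.48-fold without library 745, with an exact limit of 1.63. Htr1d had 0 UMIs in Aire-/- and 0, 6 and 3 in Aire+/+, and its exact counting limit, 0.969, lies below 1. Of these, Htr5b and Htr1a did not overlap between genotypes and Htr1d did. Htr1b, an autoreceptor of serotonin neurons, had 4 UMIs over the Aire-/- group and 26 over the Aire+/+ group (ratio 3.19, counting interval 1.11 to 12.6), with the antisense gene D430036J16Rik over its 3′ end. Htr4, known from gut motility, and Htr2b had intervals that hold 1: the ratios were 1.31 (0.487 to 4.09) and 4.42 (0.612 to 194).

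Both dopamine receptors in the table were at 0 in every library labelled Aire-/-. Drd2, the inhibitory receptor of striatum and pituitary, had 9, 10 and 9 UMIs in those labelled Aire+/+, or 3.08 ± 0.19 CPM. It was 4.58-fold lower in Aire-/- at the floor of 3 UMIs, with an exact counting limit of 3.49. Drd1, the stimulatory receptor, had 1, 1 and 6 UMIs in Aire+/+, most of them in library 753, and the exact counting limit of its Aire+/+ over Aire-/- ratio, 0.838, lies below 1. Neither carried a test under the main filter.

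GABA-A receptors are the main inhibitory channels of the brain, and neither tested subunit was called. Gabrd, the delta subunit of receptors outside synapses, had 6, 10 and 7 UMIs in the libraries labelled Aire-/- and 27, 22 and 28 in those labelled Aire+/+, or 5.29 ± 0.95 and 8.49 ± 1.10 CPM, without overlap (log2 difference -0.71, SE 0.34, edgeR adjusted p = 0.173). Gabrp, the pi subunit, known from epithelia rather than neurons, was at 7.42 ± 3.33 CPM in Aire-/- and 9.35 ± 2.30 CPM in Aire+/+, with overlap (log2 fold change -0.25, edgeR adjusted p = 0.687). Gabra5, a subunit of the hippocampus, had 0 UMIs in each Aire-/- library and 11, 6 and 12 in Aire+/+. It was 4.75-fold lower at the floor of 3 UMIs, with an exact counting limit of 3.62. The rho subunits of the retina, Gabrr1 (0, 4 and 3 UMIs in Aire-/-, against 5, 11 and 17) and Gabrr2 (0, 1 and 1, against 9, 1 and 5), overlapped between genotypes, and the last bases of Gabrr2 match Gabrr1 at 91.0% identity over 222 bases. Glrb, the glycine receptor subunit that anchors the channel at synapses, had 5 UMIs in Aire-/- and 10 in Aire+/+, a ratio of 0.982 (0.306 to 3.66).

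**Figure D3:**
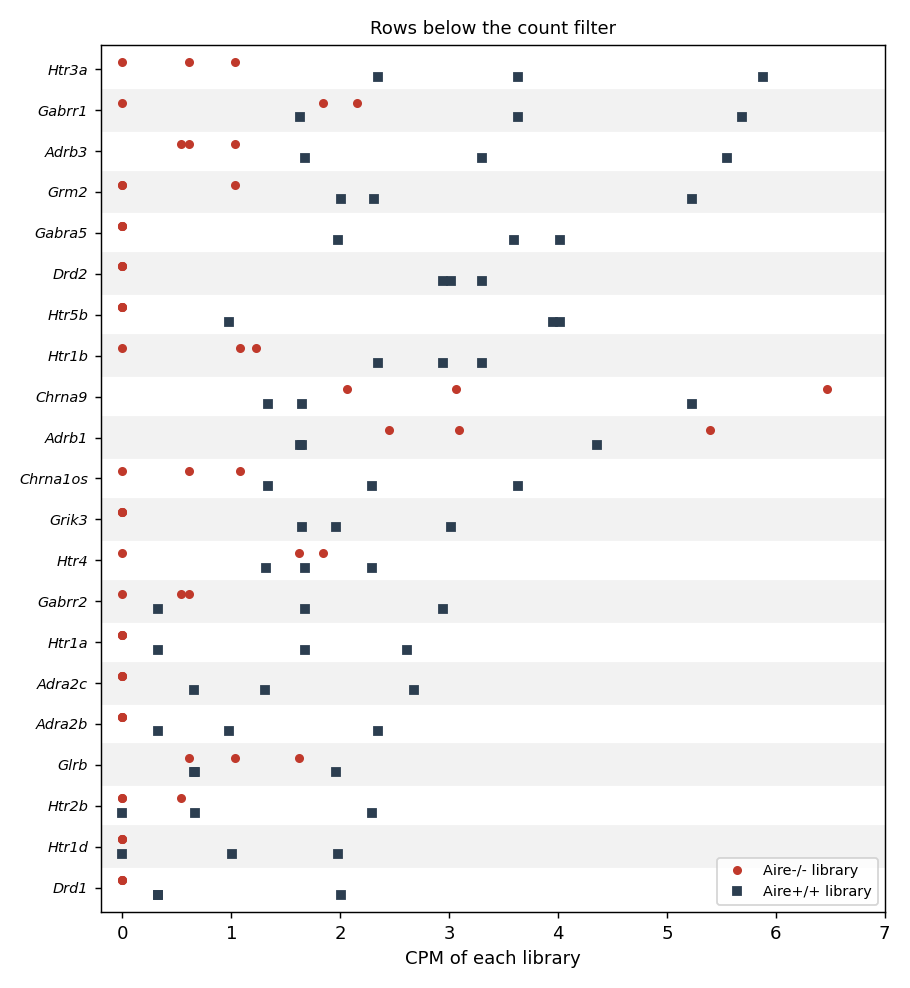
Level in CPM of each library (x axis) for 21 of the 23 rows below the count filter, ordered by their Aire+/+ UMIs; circles are Aire-/- libraries (upper line of each row) and squares Aire+/+ libraries. Of all 23 rows, 14 have every Aire-/- library below every Aire+/+ library, and Chrna9 and Adrb1 have higher Aire-/- means. The share without overlap among all genes below the filter was not counted. A row can enter through the deeper Aire+/+ libraries alone.

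Most of the 23 rows without a test had lower means in the libraries labelled Aire-/-. Their means were lower in 21 rows (91.3%, against 75.8% of all 3687 genes below the filter) and higher in 2, Adrb1 and Chrna9. They were at 0 UMIs in all Aire-/- libraries in 10 rows (43.5%, against 18.3%), and together they had 71 UMIs in Aire-/- and 464 in Aire+/+. These counts are at unequal depth, and a row can enter the table through the deeper Aire+/+ libraries alone, so they describe the rows in the table and not the receptor families as such. With the filter loosened to a min.count of 3, 32 rows were tested and 11 were called lower (34.4%, against 14.2% of genes tested that way) and 3 higher (9.38%, against 7.47%). The lower calls gained were Drd2 (edgeR adjusted p = 0.00459), Gabra5 (0.006), Grik3 (0.0141), Htr3a (0.0189), Grm2 (0.0239) and Adrb3 (0.0461), and Chrng was lost. Each gained row had at most 3 UMIs over the Aire-/- group and passed the looser filter through the Aire+/+ libraries alone. Such a row could hardly be called other than lower, so the share of lower calls is a description only. Over all 43 rows, the Aire-/- libraries lay entirely below the Aire+/+ libraries in 21 (48.8%, against 24.2% of the whole table) and entirely above in 4 (9.30%, against 13.5%). All Aire-/- libraries were at 0 UMIs in 11 of the 43 rows (25.6%, against 5.48% of the whole table). The floor bounds given for such rows set 3 UMIs against the observed Aire+/+ count. Counting error in Aire+/+ is not in them, and the exact limits are lower. The floor bounds shrink when an Aire-/- library is left out, since fewer UMIs then stand behind the 0. Without 748 they were 4.68-fold for Chrna4, 2.77-fold for Gabra5, 2.68-fold for Drd2, 2.58-fold for Htr5b, 1.91-fold for Grik3 and 1.34-fold for Adra2c and Htr1a. Without 749 they were 5.08-fold for Chrna4, 3.01-fold for Gabra5, 2.91-fold for Drd2, 2.80-fold for Htr5b, 2.08-fold for Grik3 and 1.45-fold for Adra2c and Htr1a.

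Detection was also described at equal depth. With each library thinned to 1014581 UMIs, the expected number of receptor genes with at least 1 UMI was 22.0, 25.3 and 25.4 in Aire-/- and 38.8, 36.7 and 38.7 in Aire+/+, or 24.2 ± 1.94 and 38.1 ± 1.16 of 42 (SD, n = 3 each). As a share this was 57.7% in Aire-/- and 90.6% in Aire+/+, against 87.0% and 97.3% of all genes in the table, which were not matched to the receptors by level. Many of the 42 are in the table through their Aire+/+ counts alone, which thinning does not undo, so the gap carries no test and describes these rows only. The summed level of all 43 rows was 548 ± 15.5 CPM in Aire-/- and 398 ± 14.2 CPM in Aire+/+. Without Grin2c it was 248 ± 44.9 CPM in Aire-/- and 295 ± 12.6 CPM in Aire+/+, with 1 Aire-/- library, 749, inside the Aire+/+ range.

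**Figure D4:**
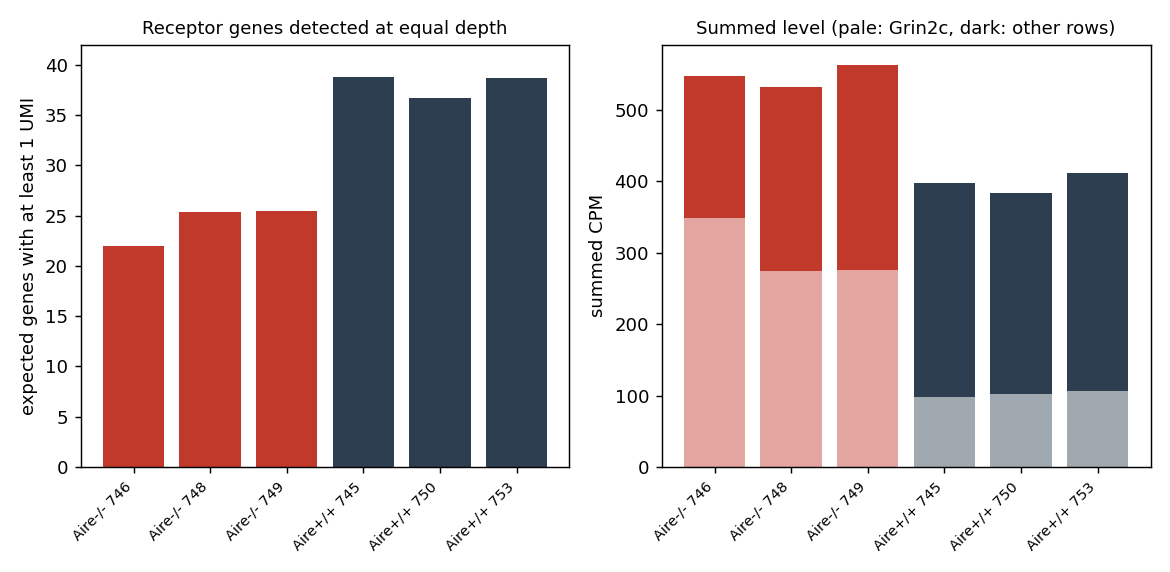
Left: expected number of the 42 receptor genes with at least 1 UMI when every library is thinned to the smallest total; right: summed CPM of all 43 rows, with Grin2c as the pale lower part of each bar, Aire-/- libraries left of Aire+/+ libraries. Detection was 22.0 to 25.4 genes in Aire-/- and 36.7 to 38.8 in Aire+/+, and the summed level was 548 ± 15.5 CPM in Aire-/- and 398 ± 14.2 CPM in Aire+/+.

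Genes next to the called receptors had calls in both directions. Of the 18 nearest genes of the table, 1 on each side of the 9 called receptors, 16 were tested. Of these, 4 had the same call as their receptor and 4 the opposite one. Over all tested genes 12.1% were lower and 8.59% higher, and whether neighbours differ from that was not tested. The same call was found, for example, for Il12b beside Adra1b (log2 fold change -3.30, edgeR adjusted p = 0.00033), Col20a1 beside Chrna4 (-1.04, 0.0152) and Prss56 beside Chrng (-4.65, 0.00135). The opposite call was found for Ptk2b beside Chrna2 (1.34, 2.25e-05), Lrrc26 beside Grin1 (1.03, 0.0493) and both neighbours of Grm4.

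Genes that make, move and break down the transmitters changed in both directions. Of 37 such genes, 28 were in the table and 22 were tested, of which 7 fell (31.8%, against 12.1% of all tested genes), 4 rose (18.2%, against 8.59%) and 11 were not called. Some that fell, such as Th and Slc18a2, passed the filter through the Aire+/+ libraries alone, so the shares are a description only. With 2 further lists, of other transmitter receptors and of genes for receptor assembly and modulation, 64 of 84 were in the table and 48 were tested; 13 fell (27.1%), 6 rose (12.5%) and 29 were not called. The 6 that rose became 2 without library 745, without 750, without 753 or with library totals as the scale. Of 9 tested enzymes of transmitter synthesis 4 fell and 2 rose, with a median log2 fold change of -0.81. Th, the first enzyme of catecholamine synthesis, had 1, 0 and 0 UMIs in the libraries labelled Aire-/- and 57, 46 and 45 in those labelled Aire+/+ (edgeR adjusted p = 3.49e-05). Pnmt, which makes adrenaline, fell to 3.60 ± 1.76 CPM in Aire-/-, against 30.3 ± 4.62 CPM in Aire+/+ (log2 fold change -2.99, edgeR adjusted p = 2.62e-05). Hdc, which makes histamine, was higher at 1154 ± 21.8 CPM in Aire-/- and 666 ± 38.9 CPM in Aire+/+ (0.79, 0.000539).

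Of 8 tested transporters 3 fell and 1 rose (median -0.22), where 12.1% of all tested genes fell and 8.59% rose. Whether the transporters or the breakdown enzymes below differ from that was not tested. Slc18a2, which loads monoamines into vesicles, had 1, 0 and 0 UMIs in the libraries labelled Aire-/- and 32, 25 and 26 in those labelled Aire+/+ (edgeR adjusted p = 0.000265), Slc6a13, a GABA transporter, fell by 2.07 on the log2 scale (0.000179), and Slc1a2, a glutamate transporter, rose by 1.03 (0.0242). Of 5 tested breakdown enzymes 1 rose: Ache, acetylcholinesterase, was at 549 ± 22.5 CPM in Aire-/- and 310 ± 9.99 CPM in Aire+/+ (log2 fold change 0.82, edgeR adjusted p = 0.000333). Bche, butyrylcholinesterase (-0.65, edgeR adjusted p = 0.246), and Abat, which breaks down GABA (0.61, 0.275), were not called.

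Receptors outside the naming rule were mostly ATP-gated channels. Of 8 tested, 3 fell (median -0.86): P2rx1, P2rx2 and P2rx3 by 2.62, 2.11 and 1.12 on the log2 scale (edgeR adjusted p of 0.0012, 0.0011 and 0.0172). Of 18 tested genes for receptor assembly and modulation 3 fell and 2 rose (median -0.08). Over all tested genes 12.1% fell and 8.59% rose, and whether either list differs from that was not tested. Slurp2, a secreted ligand of nicotinic receptors, fell by 2.96 (0.00113) and Olfm1, a secreted glycoprotein, by 1.53 (7.29e-05), as did Slurp1 by 1.99 (0.0122).

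In the authors' deposited table, whose fold changes are Aire+/+ over Aire-/-, 6 of the 43 rows were selected. The share that the authors selected over all rows was not counted here, so the 6 are a description only. The authors' deposited table gave log2 fold changes of 5.39 for Chrna4, 3.74 for Chrna2, 2.86 for Grin1 and 2.80 for Grm4, and of -1.55 for Grin2c. It did not select Chrng (adjusted p = 0.197 in the authors' deposited table), Adra1b (0.0907) or Chrna5 (0.0611). Drd2, Gabra5 and Htr5b had adjusted p of 0.0166, 0.0153 and 0.0234 in the authors' deposited table and were not selected either.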

How the data were processed

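Gene expression was measured by MARS-seq in 6 libraries of sorted mTEChi from NOD mice, 3 labelled Aire-/- and 3 labelled Aire+/+. STAR 2.4.2a, HTSeq, DESeq2, cutadapt, bcl2fastq and the build mm10 appear, without roles, per the submitters' processing notes. For annotation, strand setting and UMI handling, the method was not given in the sources used here. The authors deposited raw UMI counts for each symbol, which all tests here use. The authors also deposited normalized counts (a signal, counts divided by a size factor) and regularized log2 values, both left unused here. The log2 fold changes and p-values of the authors' own comparison are deposited, per the file headers, and are printed only where their table is named.

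Genotypes were compared over all genes by the quasi-likelihood test of edgeR 4.0.16 under R 4.3.3, with TMM scaling, filterByExpr (min.count 10), genotype as the only term and Benjamini-Hochberg adjustment over the 11956 genes tested. Levels are CPM on TMM-scaled totals. Each standard error (SE) is the log2 fold change divided by the root of F. Ratios of pooled UMIs use the same sizes. Alternatives were DESeq2 1.42.0, other scalings and filters, and libraries left out. The steps were tested on simulated counts. Positions and overlaps come from GENCODE (mm10), and 3′ ends were compared with blastn 2.17.0 (matches of at least 80 bases and 90% identity). Promoters are RefSeq's.

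The member rule, gene lists, tests and naming rule were chosen with earlier results of these data known. The rule for naming took every called receptor, the muscle subunits, each family's members with the smallest p and the most UMIs, untested members with at least 20 UMIs in Aire+/+ and up to 3 in Aire-/-, up to 3 genes with the smallest p in each transmitter list, and Aire and Gapdh. The remaining members are given to account for all rows, and neighbours and marker genes were named after their values were seen. Some genes that the rules cover are counted but not reported here by name.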

Additional observations from a re-analysis of the deposited data

How the results depend on the processing

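Among the 20 tested receptors, 196 of the results under an alternative kept their direction and their side of the threshold, 27 lost a call, 1 gained one and 11 changed sign. Among the called receptors named here, Adra1b, Chrna5 and Chrng lost calls, and all changes of sign to receptors not called. With library totals as the scale, the signs turned for Chrnb1 (-0.0099), Chrnb4 (-0.10), Chrne (-0.11) and Htr7 (-0.14); there the median log2 fold change of all tested genes was -0.23, against -0.02. Leaving out 1 library turned Chrna10 (0.12 without 748), Chrnb4 (-0.03 without 746, -0.0767 without 745), Chrne (-0.10 without 749, -0.05 without 745) and Htr7 (-0.16 without 749, -0.07 without 750). With 1 library left out, Chrna10 ran from -0.439 to 0.1151, Chrnb4 from -0.0767 to 0.2929, Chrne from -0.1019 to 0.26 and Htr7 from -0.1596 to 0.2245. The cause was not tested.

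The count of receptors called lower was 11 with min.count 3 and 12 with no filter, where more rows were tested (32 and 43), and the median log2 fold change was then -0.54 and -1.62. The rows gained include some counted almost only in Aire+/+, so these values describe the rows only. Over all genes tested, 14.2% and 13.7% were lower in these settings. The count called higher was 1 with library totals as the scale, against 4.69% of all genes tested. With 1 library left out, the count lower ran from 2 to 8, the count higher from 1 to 4 and the median from -0.52 to 0.13. Over all genes tested the shares then ran from 9.3% to 14.5% lower and from 5.23% to 8.8% higher. DESeq2 called 4 lower and 2 higher, against 10.2% and 6.9% of all genes tested. In the 5 transmitter lists the count higher was 2 with library totals, 3 with DESeq2, 2 without both Gapdh-poor libraries and 2 to 5 with 1 library left out; the count lower ran from 10 to 17. The difference in summed level, 150 CPM, was 83.9 CPM with library totals. The difference in detected receptors, -13.8, was -11.3 when at least 3 UMIs were required. No paired analysis was possible because the library numbers differ between the genotypes. Depth limits the 23 untested rows, which had 8 to 36 UMIs over the Aire+/+ group. The bounds with 1 library left out and the exact limits of rows at 0 were chosen after seeing the data.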

Other observations

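Other epithelial and immune cell markers could be compared beside the receptors. Both listed genes of the thymic cortex rose in the libraries labelled Aire-/-: Ly75 to 55.5 ± 3.66 CPM, against 27.7 ± 3.98 CPM in those labelled Aire+/+, and Psmb11, the catalytic subunit of the thymus proteasome, to 11.8 ± 2.30 CPM, against 3.84 ± 2.62 CPM (SD, n = 3 each; edgeR adjusted p of 0.00109 and 0.0196). The summed level of 12 lymphocyte markers was 160 to 299 CPM in Aire-/- and 185 to 295 CPM in Aire+/+. Over all tested genes 8.59% rose and 12.1% fell, and the marker lists here are short. Of 5 tested tuft cell markers 1 rose, and of 5 neuroendocrine markers 2 rose (Chga and Insm1) and 1 fell (Scg2). Of 4 tested endothelial and fibroblast markers, Dcn, a matrix proteoglycan of fibroblasts, rose to 167 ± 118 CPM in Aire-/- (303 CPM in library 746), against 38.3 ± 11 CPM in Aire+/+ (log2 fold change 2.07, edgeR adjusted p = 0.00187), and the summed level of the list was 157 to 447 CPM in Aire-/- and 70.2 to 104 CPM in Aire+/+. Of 5 tested myeloid markers, Itgam, an integrin subunit, fell to 3.78 ± 1.73 CPM in Aire-/-, against 12.7 ± 3.27 CPM in Aire+/+ (log2 fold change -1.66, edgeR adjusted p = 0.009), and the list summed to 1385 to 2300 CPM in Aire-/- and 1166 to 1301 CPM in Aire+/+. The part of these cells in the receptor results was not tested.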
